A study of Mus musculus with 9 samples.

Results

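Notch signalling in muscle was read here through 10 genes: the receptors Notch1, Notch2 and Notch3, the ligands Dll1, Dll4 and Jag1, and the target genes Hes1, Hey1, Hey2 and Heyl. They were taken by name, as every non-control spot whose gene name equalled one of the 10. That rule used no measured value, but the genes were chosen with earlier results of these data known. This gave 10 of 27597 gene names, 15 of 41174 probes and 33 of 43379 non-control spots per array. Of the 15 probes, 14 passed the filter on dim signal, and all 10 genes kept at least 1 probe. The exception was the second Heyl probe.

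The study set cells re-isolated from engrafted muscle against adult satellite cells, which are the stem cells that repair skeletal muscle. The re-isolated cells came from 2 lines of progenitors made from pluripotent stem cells, named iPax3 and iPax7 after paired-box transcription factors of muscle, and the labels describe them as mononucleated cells of the tibialis anterior in the strain NSG/NSGmdx4cv. NSG mice lack most lymphocytes, and mdx4cv is a dystrophin-deficient allele. The satellite cells came from the same muscle of Pax7-ZsGreen mice, a reporter strain. All mice were 3 months old, and each group had 3 single-colour Agilent arrays. RNA of 1500 sorted cells was amplified as cDNA before labelling. The labels state 3 mice per line and 3 independent experiments, give no gate for the sort and no count of clones, and do not say whether mice were pooled. The p-values below therefore measure the spread between these 9 samples. Fewer cells of a type and less RNA per cell cannot be told apart in such bulk samples.

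Notch receptors are cut when a ligand on a neighbouring cell binds and pulls on them, and the freed intracellular part joins the DNA-binding protein RBPJ to switch on genes of the Hes and Hey families. Those genes encode basic helix-loop-helix repressors. In adult muscle the pathway is known for holding satellite cells in quiescence, and ligands reach them from endothelial cells and myofibres.

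The results turn on a few 60-base probes, and where a gene has several, the reading depends on the probe. The first 30 bases are given for the probes of Heyl, Notch1, Dll4 and Hey2 and for 1 Notch2 probe, and all 60 bases for another Notch2 probe and for Hes1. Both Heyl probes are shown because the only called difference rests on one of them, and both Notch1 probes because they lie next to each other yet parted on 1 array.
Heyl, base 2906 of its transcript: actgcagaacagtctcttgacactatgggg
Heyl, base 4393: aatcattttcttcaaggtctttgcccttct
Notch1, base 7893: ggcactaggggaaaaacatatctgttccaa
Notch1, base 7836: tatgtacttttattttccacagaaacactg
Notch2, base 10129: ccacttgaagtcttgcatagaaatgaacca
Notch2, base 7420: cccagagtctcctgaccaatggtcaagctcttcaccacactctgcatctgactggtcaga
Dll4, base 2782: tttgcccagactccatcctcacagctgggc
Hey2, base 1908: ccagaggctcattgacaccaactcaaaaac
Hes1, base 408: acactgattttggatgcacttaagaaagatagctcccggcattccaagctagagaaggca

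On the mm8 build, as the scanner tables give it, the Heyl probes lie on the plus strand at chr4:122750548-122750607 and chr4:122752035-122752094. The Notch1 probes lie on the minus strand at chr2:26281261-26281319 and chr2:26281319-26281378. The Notch2 probes shown map to the plus strand at chr3:98235396-98235455 and chr3:98232687-98232746, and another, at base 9058, to chr3:98234325-98234384. The Dll4 probe maps to chr2:119026484-119026543 on the plus strand and the Hey2 probe to chr10:30522339-30522398 on the minus strand. The Hes1 probe spans 296 bases of the genome, chr16:29985644-29985939, so it crosses a splice junction. No annotation of mm8 was used, and the exon or untranslated region each probe falls in is not given.

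Arrays differed in ways that touch these genes. Between 56.5% and 79.7% of probes were well above background on an array. Re-isolated and satellite cells never shared a slide or a scan day, and the strains differed too, so that strain, slide and day cannot be told apart from the comparison with satellite cells. Of 11 listed satellite cell markers 10 were measured, and their summed level, on the linear scale with the array's 75th percentile as 1, was 161 to 292 in satellite cells, 41.7 to 53.8 in iPax3 cells and 36.1 to 76.3 in iPax7 cells. The 11 fibro-adipogenic and fibroblast markers summed to 33.7 to 84.9 in satellite cells, 406 to 801 in iPax3 and 586 to 1127 in iPax7 cells. In the comparison of both lines with satellite cells, 8 of these 11 were called higher, 3 of the 10 satellite cell markers (Chrdl2, Des and Fgfr4) were called lower, and 0 endothelial and 0 leukocyte markers were called. The re-isolated samples thus carried markers of fibroblasts at a higher level than the satellite cells did, and what part other cells had in the Notch gene values was not tested. The 14 endothelial markers summed to 77.1 in iPax7 replicate 1 and to at most 24.8 on the other arrays. The same array had the highest sums of 11 mural markers, 122, and of 10 leukocyte markers, 18.8. Such sums are weighted to bright genes. On iPax7 replicate 1, 9 of the 14 endothelial markers were well above background, beside 9 to 14 on the other arrays. There Pecam1 read 5.13 and Acta2, a mural marker, 6.46, while Cdh5, Kdr and Tie1 read between −6.33 and −6.18. Whether that array held more of these cells was not tested. Satellite replicate 3 also stood apart for several of the Notch genes, and both arrays are left out in turn below.

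Of the 10 genes, Heyl passed the test, and it did so in the comparison of both lines with satellite cells (adjusted p = 0.0485), in which 1.04% of the 22694 genes tested were called. The Heyl level was 3.92 ± 0.86 (SD, n = 3) in satellite cells and 0.69 ± 0.50 (SD, n = 6) in the re-isolated cells. Levels are log2 values after subtraction of the array's 75th percentile, and a gene was called at a Benjamini-Hochberg adjusted p below 0.05 over all genes in limma. Dll4, a ligand known from endothelium, read higher in each re-isolated array than in any satellite array, and Hey2 read lower, but neither passed. For the other 7 genes the groups overlapped. Against satellite cells, 0 of the 10 genes were called in iPax3 cells alone, where 0.432% of genes were called, and 0 in iPax7 cells alone, where 0.533% were. Between the lines, 0 of 10 and 0% of all genes were called, with 0 of 10 and 4.1% at an unadjusted p below 0.05. The lines overlapped for all 10 genes, while they did not for 9.3% of all genes.

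**Figure D1:**
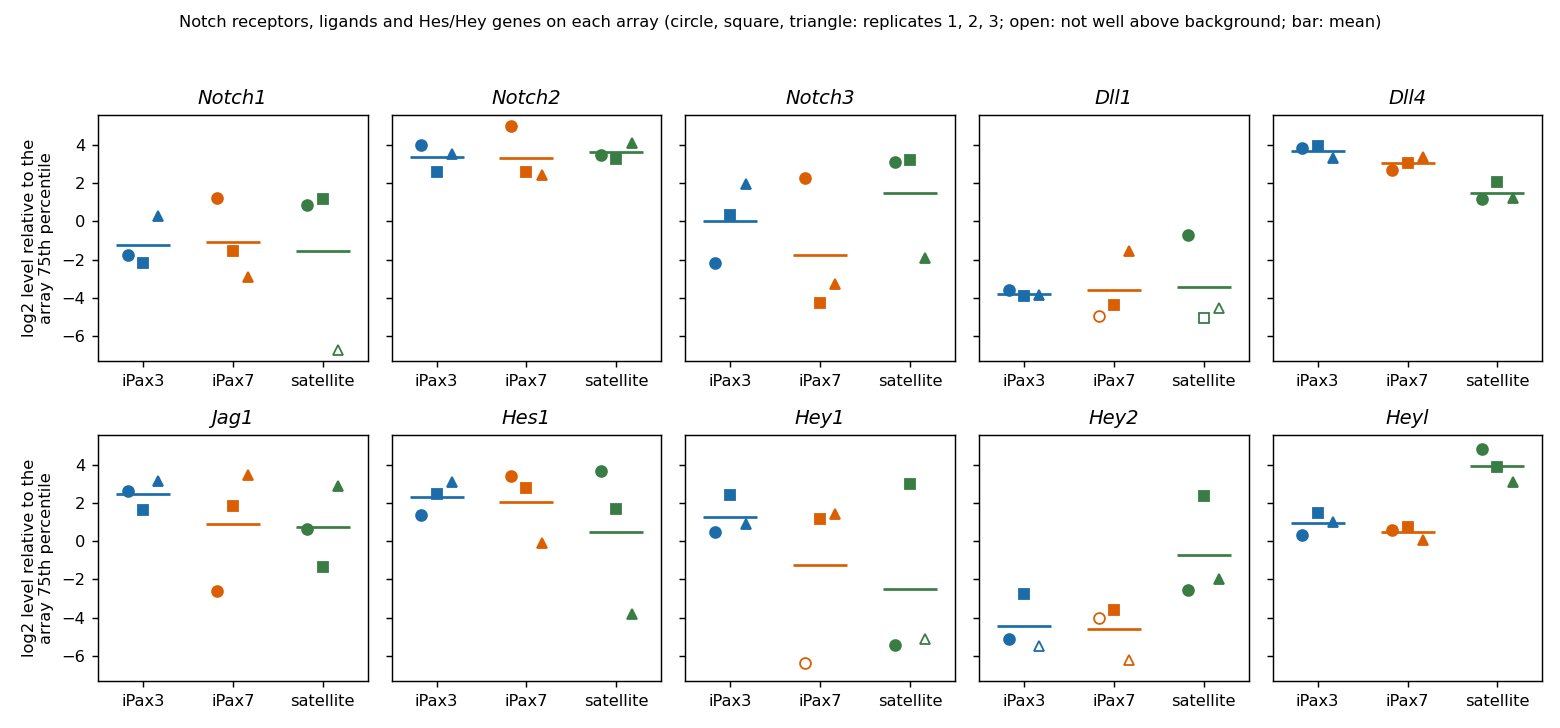
Level of each of the 10 genes on the 9 arrays, in log2 units above the array's 75th percentile, with 1 panel per gene and groups on the x axis. Symbols stand for replicates, open symbols for probes not well above background, and bars for group means. The 3 satellite arrays lie above the 6 re-isolated arrays for Heyl and Hey2 and below them for Dll4.

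The first question was how the receptors compared. Notch1 encodes a receptor with a central part in satellite cell quiescence. Its brightest probe read −1.76, −2.18 and 0.27 in iPax3 cells (replicates in the order 1 to 3, here and below), 1.25, −1.55 and −2.90 in the iPax7 line, and 0.87, 1.18 and −6.71 in satellite cells. Satellite replicates 1 and 2 were among the 3 highest arrays and satellite replicate 3 was the lowest, where the probe was not well above background. Both lines together differed from satellite cells by 0.41 ± 1.76 (SE) log2 units, with a 95% confidence interval of −3.56 to 4.37. Without satellite replicate 3 the difference was −2.17, so its direction rests on that array.

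This probe has 10 repeat spots on each array, which show how closely the same labelled cDNA was read. Their SD had a median of 0.10 log2 units over the arrays and was at most 0.17. On satellite replicate 3, 0 of the 10 spots were well above background, and they ranged from −6.89 to −6.29. The low reading on that array was therefore shared by all of its repeat spots. The spread between arrays of a group was 1.31 in iPax3, 2.11 in iPax7 and 4.47 in satellite cells, far above that between spots.

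**Figure D2:**
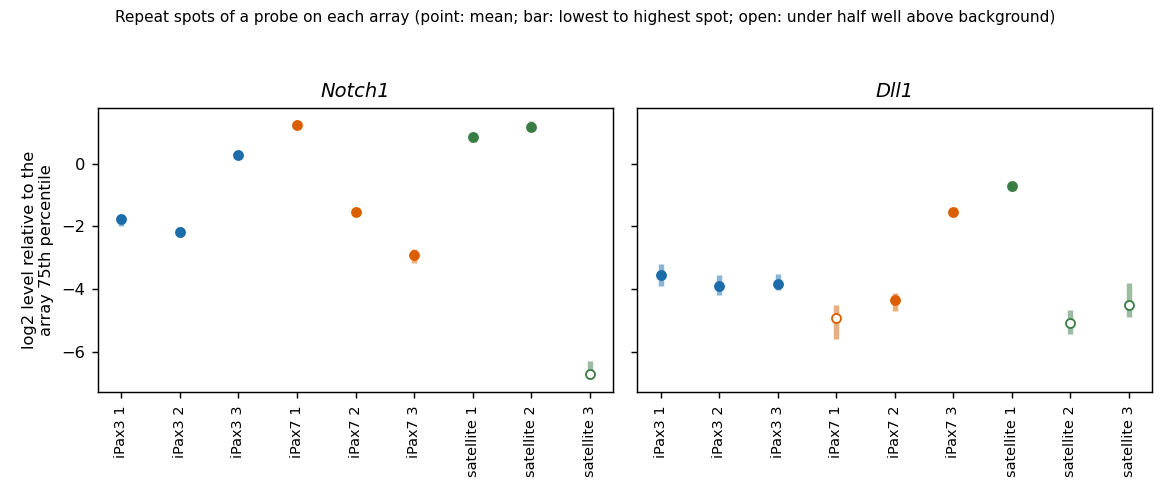
Repeat spots of the Notch1 probe at base 7893 and of the Dll1 probe, 10 per array, in log2 units above the array's 75th percentile. Points are means, bars run from the lowest to the highest spot, and open points mark arrays where under 50% of the spots were well above background. The bars are short beside the distances between arrays of the same group.

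The second Notch1 probe lies directly upstream, and the genome stretches of both probes meet at chr2:26281319. Their base numbers come from different transcript records. It read −2.15, −3.04 and −0.32 in iPax3, −1.50, −1.98 and −4.35 in iPax7 and 0.22, 0.45 and −2.97 in satellite cells, and it was well above background on all 9 arrays. Satellite replicates 1 and 2 were the highest arrays, and satellite replicate 3 lay inside the range of the re-isolated arrays. Its level minus that of the first probe lay between −2.75 and −0.38 on 8 arrays and was 3.74 on satellite replicate 3. By this probe both lines differed from satellite cells by −1.46 ± 1.08 (adjusted p = 0.567 over all probes kept). The probes of Notch1 thus gave opposite signs, and neither difference passed. Of the 14 probes of the 10 genes that were tested each on its own, 0 were called in this comparison, beside 0.759% of all probes. For iPax3 and iPax7 alone it was 0 of 14 as well, beside 0.385% and 0.434%.

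Notch2 encodes a receptor that satellite cells express along with Notch1 and Notch3. Its brightest probe, at base 10129, read 4.0, 2.59 and 3.54 in iPax3, 4.98, 2.60 and 2.42 in iPax7 and 3.48, 3.26 and 4.09 in satellite cells. The satellite arrays lay inside the range of the re-isolated arrays. The difference of both lines from satellite cells was −0.25 ± 0.74 (adjusted p = 0.898), with an interval of −1.92 to 1.42.

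The Notch2 probe at base 7420 gave another picture. It read −1.0, −0.18 and −1.14 in iPax3, −0.90, −0.13 and 0.75 in iPax7 and 1.37, 1.59 and 0.70 in satellite cells. Satellite cells were higher than every re-isolated array but iPax7 replicate 3, which read just above satellite replicate 3. Its difference was −1.66 ± 0.65 and did not pass (adjusted p = 0.299 over all probes kept). The probe at base 9058 read −2.20, −3.54 and −1.81 in iPax3, −6.22, 0.15 and −0.02 in iPax7 and −1.37, −6.14 and −6.64 in satellite cells, and it was not well above background on 3 arrays. It gave 2.45 ± 1.66 in the other direction (adjusted p = 0.528), so the Notch2 probes disagreed in sign.

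**Figure D3:**
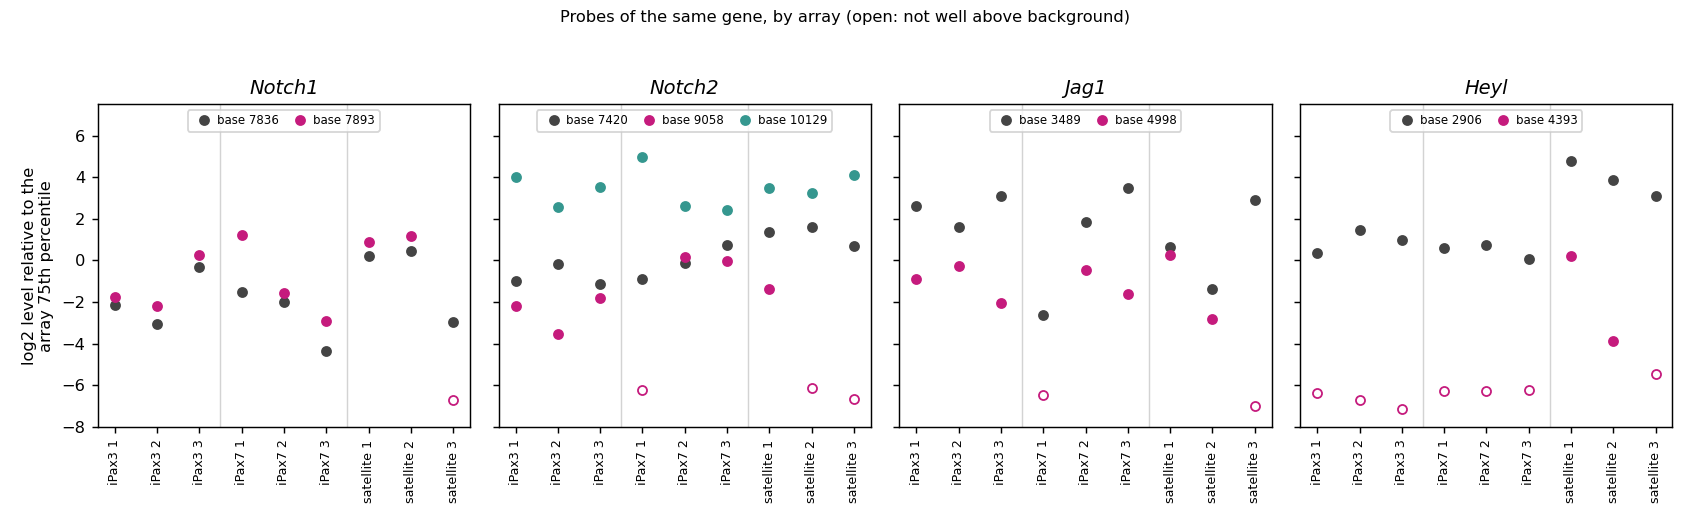
Levels of every probe of the 4 genes with more than 1 probe, by array, in log2 units above the array's 75th percentile. Colours stand for probes, named by their first base on the transcript, and open circles mark arrays where a probe was not well above background. The Notch1 probes part on satellite replicate 3, and the Notch2 probe at base 9058 is open on 3 arrays.

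Notch3, whose receptor is also prominent in pericytes and vascular smooth muscle, read −2.18, 0.33 and 1.95 in iPax3, 2.26, −4.26 and −3.27 in iPax7 and 3.09, 3.21 and −1.91 in satellite cells. Satellite replicates 1 and 2 were the highest arrays, while satellite replicate 3 lay among the re-isolated ones. The difference was −1.43 ± 2.0 for iPax3, −3.22 ± 2.0 for iPax7 (adjusted p = 0.545) and −2.32 ± 1.73 for both lines (adjusted p = 0.548). With 1 array left out, the difference for both lines ran from −4.01 without satellite replicate 3 to −1.45 without satellite replicate 2. It was −1.51 without satellite replicate 1, −1.70 without iPax7 replicate 2 and −3.33 without iPax7 replicate 1. Of 11 mural markers 1 was called, Myh11, the smooth muscle myosin heavy chain. It read 2.49, 2.67 and 3.26 in satellite cells and between −0.84 and 0.66 in the re-isolated cells (−2.95 ± 0.56, adjusted p = 0.0482). Of the 11, 3 read higher and 8 lower in both lines. In limma 0 of the higher and 2 of the lower had an unadjusted p below 0.05, beside 15.4% of all genes in either direction. The linear levels of the 11 summed to 52.8 to 122 in re-isolated and 64.0 to 103 in satellite cells. Such a sum is weighted to bright genes such as Acta2, which read higher in both lines (1.25 ± 0.69, adjusted p = 0.415).

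The ligands came next. Dll4 encodes a ligand that is abundant in endothelial cells. It read 3.83, 3.92 and 3.33 in iPax3, 2.71, 3.04 and 3.35 in iPax7 and 1.15, 2.07 and 1.20 in satellite cells. Every re-isolated array was above every satellite array, with a gap of 0.64 between the nearest, and the spread within a group was at most 0.51 (SD). The difference was 2.22 ± 0.63 for iPax3 (adjusted p = 0.206), 1.55 ± 0.63 for iPax7 (adjusted p = 0.375) and 1.88 ± 0.55 for both lines (adjusted p = 0.166), which is 3.69-fold for the last. Both lines share the satellite arrays, so these values are not independent of each other.

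The Dll4 difference stayed between 1.72 and 2.18 with any 1 array left out, and it was 1.97 without iPax7 replicate 1, the array with the high endothelial sum. The 14 endothelial markers summed to between 7.46 and 9.20 in iPax3 cells, to 77.1, 24.8 and 11.7 in the iPax7 replicates and to between 18.9 and 22.3 in satellite cells. Against satellite cells, 2 of the 14 read higher in iPax3 and 6 in iPax7, and 0 were called in either. Pecam1, an adhesion molecule of endothelial cells, read 0.97, −0.83 and 1.77 in iPax3, 5.13, 1.92 and −1.71 in iPax7 and 1.63, −0.23 and 0.74 in satellite cells. Tek, which encodes an angiopoietin receptor, was well above background on 0 iPax3, 3 iPax7 and 1 satellite arrays, and Cdh5, which encodes VE-cadherin, on 0, 2 and 2. The sums were below the satellite range on the iPax3 arrays and iPax7 replicate 3 and above it on iPax7 replicates 1 and 2, and their part in the Dll4 values was not tested.

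Dll1 encodes the ligand known from differentiating myogenic cells. It read −3.56, −3.91 and −3.84 in iPax3, −4.92, −4.35 and −1.54 in iPax7 and −0.72, −5.07 and −4.51 in satellite cells. Satellite replicate 1 and iPax7 replicate 3 read highest, and the probe was not well above background on iPax7 replicate 1 and satellite replicates 2 and 3. The difference of both lines was −0.26 ± 1.1 (interval −2.75 to 2.23), and it became 1.1 without satellite replicate 1. The 10 repeat spots of its probe had a median SD of 0.20.

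Jag1, a ligand of vascular and many other cells, read 2.62, 1.61 and 3.12 in iPax3, −2.61, 1.83 and 3.48 in iPax7 and 0.63, −1.36 and 2.89 in satellite cells. The iPax7 arrays spanned more than the satellite arrays did, with replicate 1 as the lowest of all 9. The difference was 1.73 ± 1.58 for iPax3, 0.18 ± 1.58 for iPax7 and 0.95 ± 1.37 for both lines (adjusted p = 0.773). The second Jag1 probe lies 1509 bases further along the transcript and gave 1.22 ± 1.72 for both lines, the same sign. It was not well above background on iPax7 replicate 1 and satellite replicate 3.

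The Hes and Hey genes stand at the output of the pathway. Heyl read 0.35, 1.46 and 0.99 in iPax3, 0.59, 0.72 and 0.05 in iPax7 and 4.80, 3.89 and 3.08 in satellite cells. The lowest satellite array stood 1.61 log2 units above the highest re-isolated array, and the probe was well above background on all 9. Both lines together were lower by 9.38-fold (log2 difference −3.23 ± 0.62, interval −4.62 to −1.84, adjusted p = 0.0485). Taken singly, the lines differed by −2.99 ± 0.71 (iPax3, adjusted p = 0.134) and −3.47 ± 0.71 (iPax7, adjusted p = 0.0881) and did not pass.

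The Heyl call was close to the threshold. With any 1 array left out the difference lay between −3.65 and −2.79, and the adjusted p between 0.0563 and 0.162, so the call was lost in 9 of 9 such fits. With the slide as a random block the adjusted p was 0.23, and over all probes in place of genes it was 0.0665. The direction held in each of these fits.

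The second Heyl probe, 1487 bases further along, was dim. It read 0.22, −3.86 and −5.45 in satellite cells and between −7.15 and −6.22 in the re-isolated cells, and it was well above background on satellite replicates 1 and 2 only. It failed the filter and was not tested. Set against the lowest signal well above background on each re-isolated array, the mean of the satellite arrays was 3.74-fold higher. Satellite replicate 3, not well above background, entered the satellite mean as measured, so this fold is not a strict lower bound. The satellite mean was −3.03, beside −4.93 for the re-isolated arrays raised to that lowest signal. It rests mostly on satellite replicate 1, and the lowest satellite array, at −5.45, lay below −4.93. Both Heyl probes read higher in satellite cells, the second without a test.

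Hey2 encodes a repressor of the same family. It read −5.08, −2.77 and −5.45 in iPax3, −4.03, −3.59 and −6.18 in iPax7 and −2.52, 2.34 and −1.97 in satellite cells. All satellite arrays were higher than all re-isolated arrays, but the gap between iPax3 replicate 2 and satellite replicate 1 was only 0.25. The probe was well above background on 2 iPax3, 1 iPax7 and 3 satellite arrays. The difference was −3.72 ± 1.39 for iPax3 (adjusted p = 0.332), −3.89 ± 1.39 for iPax7 (adjusted p = 0.313) and −3.80 ± 1.21 for both lines (adjusted p = 0.198). Without satellite replicate 2, the highest array, it was −2.27 for both lines.

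Hes1, the most widely used target of the pathway, read 1.35, 2.46 and 3.08 in iPax3, 3.42, 2.80 and −0.08 in iPax7 and 3.66, 1.66 and −3.82 in satellite cells. The satellite arrays held both the highest and the lowest of the 9 values. The difference of both lines was 1.67 ± 1.53 (adjusted p = 0.628), and it turned to −0.49 without satellite replicate 3. No direction can be given for Hes1.

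Hey1, which acts with Heyl in satellite cells, varied most. It read 0.46, 2.41 and 0.90 in iPax3, −6.34, 1.15 and 1.44 in iPax7 and −5.42, 3.00 and −5.08 in satellite cells. iPax7 replicate 1 and satellite replicates 1 and 3 were far below the other arrays, and the probe was not well above background on iPax7 replicate 1 and satellite replicate 3. The difference of both lines was 2.5 ± 2.22 (adjusted p = 0.619), and it ran from 1.04 to 5.26 with 1 array left out. Hey1 and Heyl thus had opposite signs, and the Hey1 difference did not pass.

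**Figure D4:**
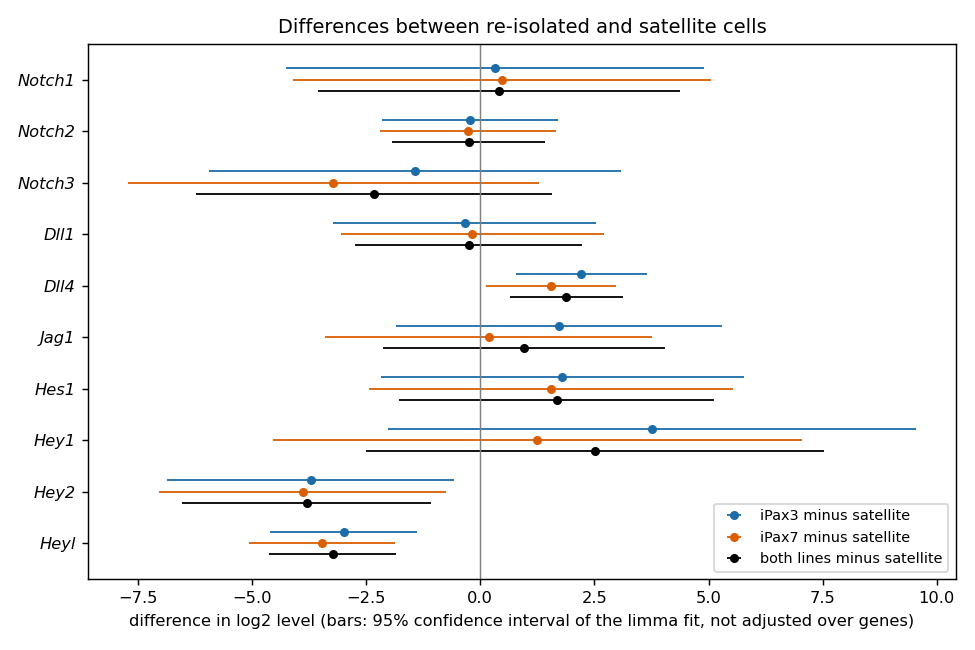
Differences in log2 level between re-isolated and satellite cells for the 10 genes, for each line and for both together. Points are limma estimates and bars their 95% confidence intervals, not adjusted over genes. The intervals of Dll4, Hey2 and Heyl lie on one side of 0 in all 3 comparisons, and those of the other 7 genes cross it.

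Across the 10 genes, 3 had groups that did not overlap in each comparison with satellite cells: Dll4, Hey2 and Heyl. Over all genes tested this held for 18.9% with iPax3, 16.3% with iPax7 and 8.35% with both lines. The same 3 genes had an unadjusted p below 0.05, which 12.4%, 12.4% and 15.4% of all genes had. The members' median difference was 0.05, 0.004 and 0.08 log2 units, beside −0.19, −0.15 and −0.16 over all genes, and 5 of 10 were higher in each. As a list, the 10 genes did not move in 1 direction.

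Between the lines, the differences of Hey1 and Jag1 rested on iPax7 replicate 1. The iPax7 level minus the iPax3 level was largest for Hey1 (−2.51 ± 2.57), Notch3 (−1.79 ± 2.0) and Jag1 (−1.55 ± 1.58), with adjusted p near 1 for all 10 genes. Without iPax7 replicate 1 the differences of Hey1 and Jag1 became 0.036 and 0.21, and that of Notch3 −3.80. That array shared a slide with the iPax3 arrays, and within the slide it differed from their mean by −7.60 for Hey1, −5.05 for Jag1, 2.47 for Notch1 and 2.23 for Notch3. For Dll4 and Heyl the same within-slide differences were −0.99 and −0.34.

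The rest of the pathway was read from 54 other genes, of which 53 were tested and 0 were called in any of the 4 comparisons. At an unadjusted p below 0.05, 7 of these 53 were higher and 3 lower in both lines than in satellite cells, while 15.4% of all genes passed that threshold in either direction. The list's median was −0.33 beside −0.16 over all genes. For iPax3 the medians were −0.01 and −0.19, and for iPax7 −0.53 and −0.15. Genes of ligand endocytosis and receptor modification included the smallest p: Neurl1a, which encodes a ubiquitin ligase that acts on Notch ligands. It read 2.24, 3.35 and 3.24 in iPax3, 0.68, 3.28 and 0.76 in iPax7 and −1.04, −1.24 and −2.49 in satellite cells, so the groups did not overlap. Its difference for both lines was 3.85 ± 0.77 (adjusted p = 0.0596).

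By role, 5 of 9 genes of modification and endocytosis, 7 of 9 of cleavage, 4 of 15 nuclear genes and 3 of 8 of inhibition and turnover read higher in both lines, with medians of 0.62, 0.54, −0.70 and −0.23. These medians depended on the scaling. That of cleavage was 0.042 under normexp correction, 0.066 under quantile normalisation and 0.19 in the deposited table. With the percentile taken over probes above background on all arrays it was 0.86. That of modification was 0.22 in the deposited table and 0.93 with this percentile. That of inhibition and turnover turned to 0.080 with the percentile taken over probes above background on all arrays. Of the 6 other receptors and ligands 3 read higher, with a median of −0.079, or 0.23 with the same percentile and −0.40 in the deposited table. The 6 other Hes and target genes, Hes5, Hes6, Hes7, Nrarp, Bhlhe40 and Bhlhe41, all read lower, with 0 called. Their median was −0.89, beside −0.16 over all genes, and Bhlhe40, at −0.099, lay above the latter. With the percentile taken over probes above background on all arrays, 5 of 6 read lower and Bhlhe40 higher. The median of the 6 was −0.48 in the deposited table and −0.52 under normexp correction. Nrarp was well above background on 1 iPax3, 1 iPax7 and 2 satellite arrays. Hes6 and Rbpj are named after their values were seen. Hes6, a Hes family member known from differentiating myoblasts, had an unadjusted p below 0.05 (−2.10 ± 0.73, adjusted p = 0.232). Rbpj encodes the DNA-binding partner of the receptors. Its probe was well above background on 0 iPax3, 1 iPax7 and 2 satellite arrays.

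**Figure D5:**
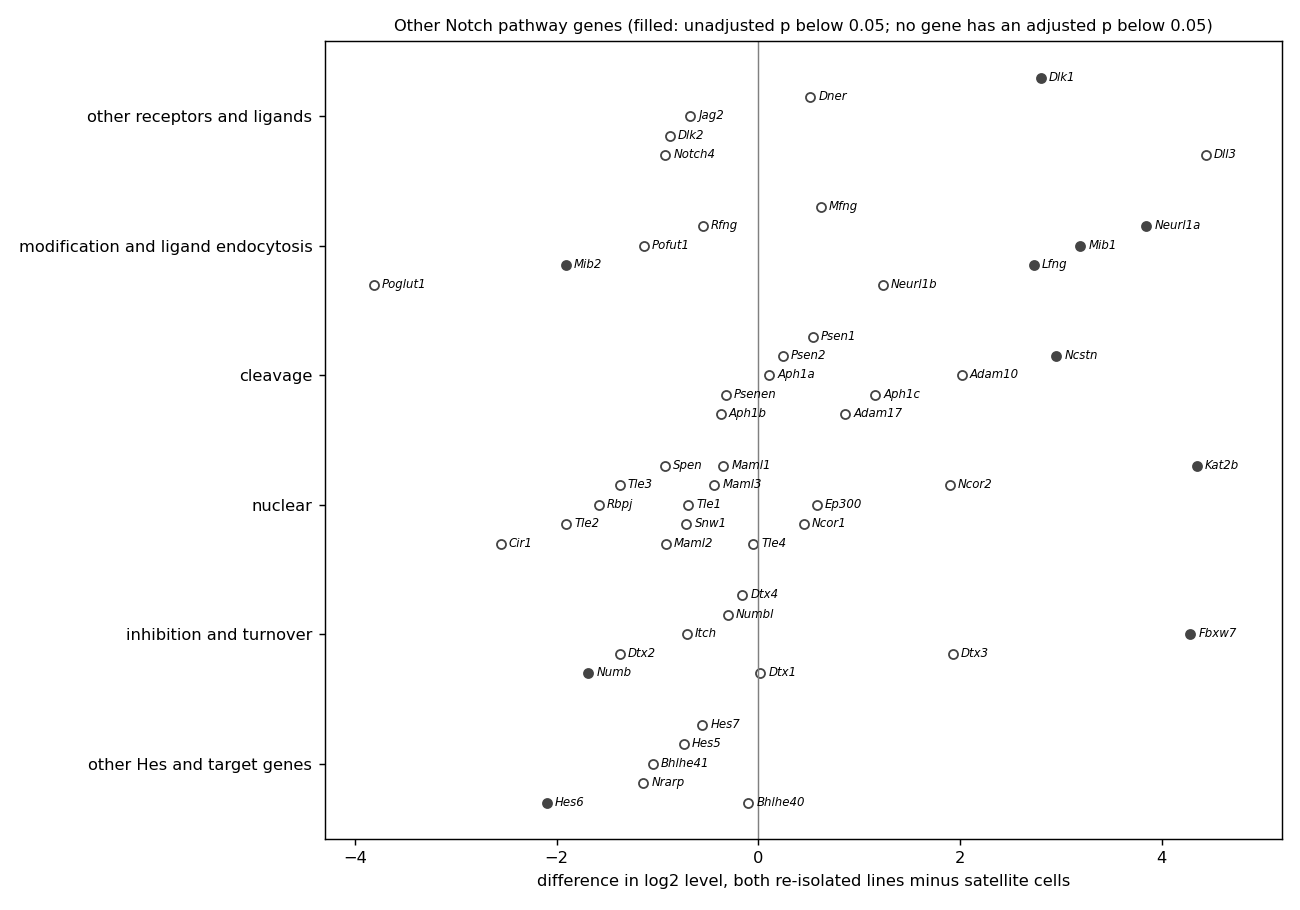
Difference in log2 level, both lines minus satellite cells, for the 53 other pathway genes tested, by role. Filled points have an unadjusted p below 0.05, and no adjusted p is below 0.05. The 6 other Hes and target genes lie to the left of 0 (5 of 6 with the other percentile, which turned Bhlhe40). Bhlhe40, at −0.099, lies to the right of the median over all genes, −0.16. Neurl1a, at 3.85, has the smallest p.

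Genes with enhancers bound by RBPJ in myogenic cells formed a list of 6, of which 5 were tested and 0 were called. In both lines 2 of the 5 read higher and 3 lower, with a median of −0.71 beside −0.16 over all genes. At an unadjusted p below 0.05 in limma, 1 was higher and 2 were lower, beside 15.4% of all genes in either direction. Col6a1, a collagen VI chain, read 3.31, 2.5 and 3.94 in iPax3, 2.42, 2.96 and 2.88 in iPax7 and 0.79, −4.79 and −3.85 in satellite cells (5.62 ± 1.13, adjusted p = 0.0609). With 1 array left out, Col6a1 passed in 1 of 9 fits, and its adjusted p ran from 0.00276 to 0.204. The fit that passed was the one without satellite replicate 1, with a difference of 7.33. Pax7, the defining transcription factor of satellite cells, differed by −4.94 ± 1.05 (adjusted p = 0.0721). It also passed in 1 of 9 such fits, without satellite replicate 3 (−6.23, adjusted p = 0.0403), and its adjusted p reached 0.228. Col6a1 and Pax7 thus had opposite signs. Col6a1 is also expressed by fibroblasts, whose markers moved with it as given above, and their part in its value was not tested.

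As a description over the 9 arrays, the genes whose levels were most like those of Heyl were Gal (Pearson r = 0.96) and Lzts3 (0.95), of 13322 genes well above background on all arrays. For Dll4 they were Fgf7 (0.94) and the transcript TC1684117 (0.94), and for Notch3 Dnajc8 (0.90) and NAP057029-1 (0.89). The arrays share their groups, slides and days, and no test was made.

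The promoter was looked at because Hey2 and Heyl, target genes of the pathway, both read lower in re-isolated cells. Promoters from RefSeq on GRCm38.p6 were found for 7 of the 10 genes, and not for Hes1, Hey1 and Heyl. The core of the RBPJ motif, TGGGAA, was searched on both strands in the 250 bases before each start. Hey2 held 1 match, at 207 bases before the start on the opposite strand, and Notch1, Notch2, Notch3, Dll1, Dll4 and Jag1 held 0. Of 32851 promoters 21.6% hold such a match. The Hey2 window, chr10:30842784-30843033 on the minus strand, is printed with the match in capitals.
Hey2 promoter: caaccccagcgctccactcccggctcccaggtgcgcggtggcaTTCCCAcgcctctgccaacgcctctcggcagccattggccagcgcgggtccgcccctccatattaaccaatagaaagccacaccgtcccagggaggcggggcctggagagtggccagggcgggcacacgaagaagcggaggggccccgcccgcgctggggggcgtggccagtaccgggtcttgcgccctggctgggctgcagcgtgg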

How the data were processed

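RNA was measured on 9 single-colour Agilent arrays, 3 each of iPax3, iPax7 and satellite cells. Intensity values were deposited as scanner tables whose software, per the file headers, was Agilent Feature Extraction 10.5.1.1. It subtracts a background and calls a spot well above it at 13 of its standard deviations. The authors also deposited a table of log2 values, for which the submitters' processing notes name limma. Its columns had medians of 7.633 to 7.709 and an r of 0.9875 to 0.9993 with log2 of each array's mean signal. Its scale is therefore an uncentred log2, its adjustment between arrays is unknown, and it served as an alternative.

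From the scanner tables, log2 of the processed signal minus the 75th percentile of each array was computed here, with non-positive values set to the smallest positive one. Outlier spots were left out and spots of a probe averaged. A probe counted as above background on an array when at least 50% of its spots were. Probes above background on at least 3 of 9 arrays were kept (32953), provided at most 2 arrays lacked a value and each group had 2 or more, and the probe of highest mean stood for its gene (22694 genes). The accession named 24375 probes, a current symbol 6301 and an older symbol 2426, and 8072 kept the file's name, with 0 changes to the 10 genes. limma 3.58.1 in R 4.3.3 fitted a mean per group over the 9 arrays, with no block. It was afterwards tested on simulated data whose means and spread were taken from the real data and their fit. Differences carry standard errors of the fit, and group means carry SDs. The number of arrays limits the precision.

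The rule for naming genes was all 10 genes with each of their probes, any called gene of both pathway lists plus the 3 of smallest p, and, for the 3 members with the largest differences among those above background on all arrays, the 2 genes of highest correlation. The genes and lists were chosen with earlier results of these data known.

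Alternatives were normexp background correction (offset 50), quantile normalisation, a percentile over probes above background on all arrays, other filters, other summaries of probes, the deposited table, slide and scan day as blocks, a replicate block and each array left out. Same-numbered samples deviated together at r between −0.13 and 0.06, so the numbers were not taken as pairs.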

Additional observations from a re-analysis of the deposited data

How the results depend on the processing

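Of the comparisons with satellite cells, Dll4, Hey2 and Heyl kept their direction under every alternative tried, as did Notch3, and Dll4 and Hey2 passed under none. Heyl passed for both lines under normexp correction (adjusted p = 0.0397), with the probes above background on all arrays (0.0246) and with the mean of the probes of a gene (0.0464), and missed under the other 8 alternatives (0.0567 to 0.23). For both lines, the number of the 10 genes called was therefore 0 instead of 1 under quantile normalisation, the percentile over probes above background on all arrays, no filter, every probe as its own unit, the deposited table, slide or scan day as a random block and the replicate block. It was 0 to 0 with 1 array left out. For iPax3, iPax7 and between the lines it was 0 to 0 there too.

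Over all genes, the called numbers were 98, 121 and 236 for iPax3, iPax7 and both lines, and 0 between the lines. They became 165 for iPax3 under the other percentile, 76 for iPax7 with the probes above background on all arrays, and 186 and 196 for iPax3 and iPax7 in the deposited table. With the slide as a random block they were 14, 43 and 47, and with the scan day 27, 36 and 43. Between the lines 1 gene was called under quantile normalisation, under the other percentile, with the mean of probes and with the slide as a random block. With 1 array left out, in fits that pool the spread over groups, the numbers ran from 19 to 452 for iPax3, 35 to 490 for iPax7, 75 to 692 for both lines and 0 to 0 between the lines. The cause of these changes was not tested. The median difference of all genes for both lines, −0.16, was 0.16 under the other percentile, −0.24 under normexp, −0.20 under quantile normalisation and −0.14 in the deposited table, and differences are to be read against it. For both lines, Neurl1a passed under 3 of 11 alternatives with all arrays, Col6a1 under 2 of 10 and Pax7 under 2 of 11. Kat2b, named after its values were seen, passed in the deposited table.

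With the replicate number as a block, 37, 55 and 115 genes were called for iPax3, iPax7 and both lines, and the adjusted p of Heyl was 0.109. The numbers do not pair the samples, so this is a change of the fit alone.

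Directions turned for genes that missed the threshold throughout. Notch1 in the order iPax3, iPax7 and both lines against satellite cells turned to −1.22, −1.05 and −1.14 under normexp, to −1.07, −1.85 and −1.46 with the probes above background on all arrays, to −0.37, −0.68 and −0.52 with the mean of probes and to −0.47, −0.33 and −0.40 in the deposited table. With the slide as a random block Notch1 in iPax3 was −0.54, and between the lines it was −0.78 with the probes above background on all arrays and −0.31 with the mean of probes. Notch2 in iPax3 and both lines turned to 0.059 and 0.010 under normexp, 0.32 and 0.14 under quantile normalisation, 0.15 and 0.058 under the other percentile and 0.47 and 0.27 in the deposited table. Notch2 in iPax7 was 0.37 with the mean of probes and 0.063 in the deposited table, and both lines gave 0.18 with the mean of probes. Dll1 turned to 0.046, 0.065 and 0.055 under the other percentile, and in iPax3 to 0.16 with the slide as a random block. Jag1 in iPax7 was −0.26 with that block. Between the lines, the random slide block gave 0.79 for Notch2, 0.23 for Notch3, −0.50 for Dll1, 0.44 for Hes1 and 0.12 for Hey2. The fixed slide block gave 1.61, 2.23, −1.15, 1.12 and 0.40 in the same order. It sets only iPax7 replicate 1 against the mean of the iPax3 arrays, so each of these values rests on 1 iPax7 array. Notch2 between the lines was 0.38 with the mean of probes, and Hey2 was 0.013 under normexp, 0.083 under quantile normalisation and 0.018 in the deposited table.

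With 1 array left out, the differences from satellite cells in iPax3, iPax7 and both lines ran from −2.25 to 1.70, −2.09 to 1.85 and −2.17 to 1.78 for Notch1, from −1.16 to 1.02, −1.21 to 1.18 and −1.08 to 1.1 for Dll1, and from −0.36 to 3.38, −0.61 to 3.13 and −0.49 to 3.25 for Hes1. Notch2 ran from −0.55 to 0.16 in iPax3 and −1.1 to 0.18 in iPax7, Jag1 from −1.11 to 1.93 in iPax7 and −0.087 to 2.04 in both lines, and Hey1 from −0.21 to 4.0 in iPax7. Between the lines the ranges were −1.0 to 1.07 for Notch1, −0.86 to 0.42 for Notch2, −0.87 to 0.83 for Dll1, −2.84 to 0.21 for Jag1, −0.93 to 0.81 for Hes1, −3.85 to 0.036 for Hey1 and −0.68 to 0.66 for Hey2. Dim signal limits Dll1, Hey1 and Hey2, whose probes were well above background on 6, 7 and 6 of 9 arrays, and some other pathway genes more, such as Rbpj, Aph1c and Dll3 on 3 and Nrarp, Poglut1 and Tle4 on 4.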
